A study of Mus musculus with 9 samples.

Results

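The 8 genes described here encode proteins of the red cell membrane and of the skeleton beneath it: Rhag, Rhd, Ermap, Slc4a1, Ank1, Epb42, Sptb and Add2. They were chosen by symbol from the 55488 genes listed in each of 9 RNA sequencing tables, and all 8 were found once in every table. All 9 libraries came from fetal livers of C57BL/6 mice at embryonic day 14.5, and each was made from 100 sorted cells. Evi1 HSC (3 libraries) were GFP+ cells of the stem cell gate CD150+ CD48- c-Kit+ Sca-1+ Lin- from Tie2-Cre::ROSA-Evi1 embryos. WT HSC (3 libraries) passed that surface gate without the GFP criterion, and WT KL (3 libraries) were c-Kit+ Sca-1- Lin- progenitors. Both WT groups carried the ROSA-Evi1 allele with no Cre, so every group carried the allele. Tie2-Cre is active in blood and endothelial cells alike. No label says whether the replicates of a group were separate embryos, so a p-value here reflects the spread among these libraries, which may be technical. A library is named below by its group and replicate number, as in WT KL 2.

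The red cell membrane is held to a net of spectrin by protein bridges. In the ankyrin complex, the anion exchanger band 3 (Slc4a1) and the Rh proteins (Rhag and Rhd) sit in the membrane. Ankyrin-1 (Ank1), steadied by protein 4.2 (Epb42), ties them to beta spectrin (Sptb). Beta adducin (Add2) caps the short actin filaments at which spectrin tetramers meet. Fetal liver is the main site of red cell formation at this stage, and these genes are switched on as progenitors commit to the erythroid lineage and mature. The transcription factors GATA1 and KLF1 activate many of them.

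RefSeq promoter windows on GRCm38.p6 (250 bases before to 50 after the start) were given for 6 of the 8 genes, and not for Ank1 and Slc4a1. A GATA motif was searched on both strands as AGATAA, with T also allowed as its first base and G as its last. All 6 windows held it, beside 29.8% of all 32851 windows. Without G as the last base it was in 4 of the 6 (Ermap, Rhd, Rhag and Epb42), beside 18.6% of all windows. A KLF-type motif, searched as CCNCNCCC on both strands, was in 3 of the 6 (Rhd, Add2 and Sptb), beside 49.5% of all windows. No GATA match shared a base with a KLF-type match. A match describes the letters only. The stretches below are shown because these genes were low in the same libraries, and capitals mark the GATA match, which reads as its reverse complement where it lies on the other strand (all but Rhd).
Ermap, chr4:119190012-119190131, minus strand: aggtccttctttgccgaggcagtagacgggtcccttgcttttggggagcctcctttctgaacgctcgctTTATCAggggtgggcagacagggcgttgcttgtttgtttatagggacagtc
Rhd, chr4:134864416-134864535, plus strand: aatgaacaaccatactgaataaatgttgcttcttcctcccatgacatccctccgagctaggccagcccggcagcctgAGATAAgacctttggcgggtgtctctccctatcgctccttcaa
Rhag, chr17:40811006-40811125, plus strand: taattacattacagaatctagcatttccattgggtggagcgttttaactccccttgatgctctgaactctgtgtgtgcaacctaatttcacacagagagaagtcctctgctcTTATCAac
Epb42, chr2:121037073-121037127, minus strand: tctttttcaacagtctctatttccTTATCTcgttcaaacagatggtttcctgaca
Add2, chr6:86028431-86028482, plus strand: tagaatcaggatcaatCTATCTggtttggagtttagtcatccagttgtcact
Each stretch lies upstream of the start given by both RefSeq and GENCODE M21. The match began 43, 31, 67, 226 and 234 bases before the RefSeq start in Rhd, Rhag, Ermap, Epb42 and Add2. The GENCODE starts of Rhag, Ermap and Epb42 differ from the RefSeq ones, so these distances depend on the annotation. The match of Sptb lay within its transcribed bases and is not shown.

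Values are TPM, a length-scaled share of transcripts. Levels of different genes were compared on this scale, and its accuracy between genes was not tested. Between 15422 and 18806 genes reached 1 TPM per library, and the read depth is unknown. A pair of libraries went against its labels in genes that are not among the 8. Mecom, which encodes Evi1, was at 176 to 210 TPM in Evi1 HSC, 114 to 161 TPM in WT HSC 1 and 2, and at most 0.325 TPM in WT KL 2 and 3. The library labelled WT HSC 3 held 0.0167 TPM and that labelled WT KL 1 held 90.8 TPM. Across genes, the first had a mean correlation of 0.972 with WT KL 2 and 3, and the second one of 0.955 with WT HSC 1 and 2. Each result is therefore given over the 9 libraries as labelled and over 7, without this pair. That leaves 2 libraries in each WT group.

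Of the 8 genes, 6 were lower in every Evi1 HSC library than in every one of the 6 WT libraries: Ermap, Rhag, Rhd, Ank1, Epb42 and Add2. This count does not depend on which WT label a library carries, although it sets a stem cell gate beside a mix of gates. Among the 19461 genes tested (1 TPM in at least 3 libraries), 832, or 4.28%, lay below all WT libraries in this way. Ank1 and Add2 reached 1 TPM in WT libraries alone, so they passed that filter only through the groups in which they were high. Sptb and Slc4a1 overlapped, both through Evi1 HSC 1, and without that library all 8 genes lay below (beside 7.21% of tested genes). For Slc4a1 the highest Evi1 HSC value was then 0.0892 TPM, against a lowest WT value of 0.221 TPM. For Add2, over all 9 libraries, these values were 0.283 and 0.541 TPM. Both gaps lie under 1 TPM. Without Evi1 HSC 2, Evi1 HSC 3 or the pair the count was 6 (beside 6.23, 6.85 and 6.44% of tested genes). In sorted cells measured in bulk, fewer erythroid-committed cells and less RNA per cell cannot be told apart.

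**Figure D1:**
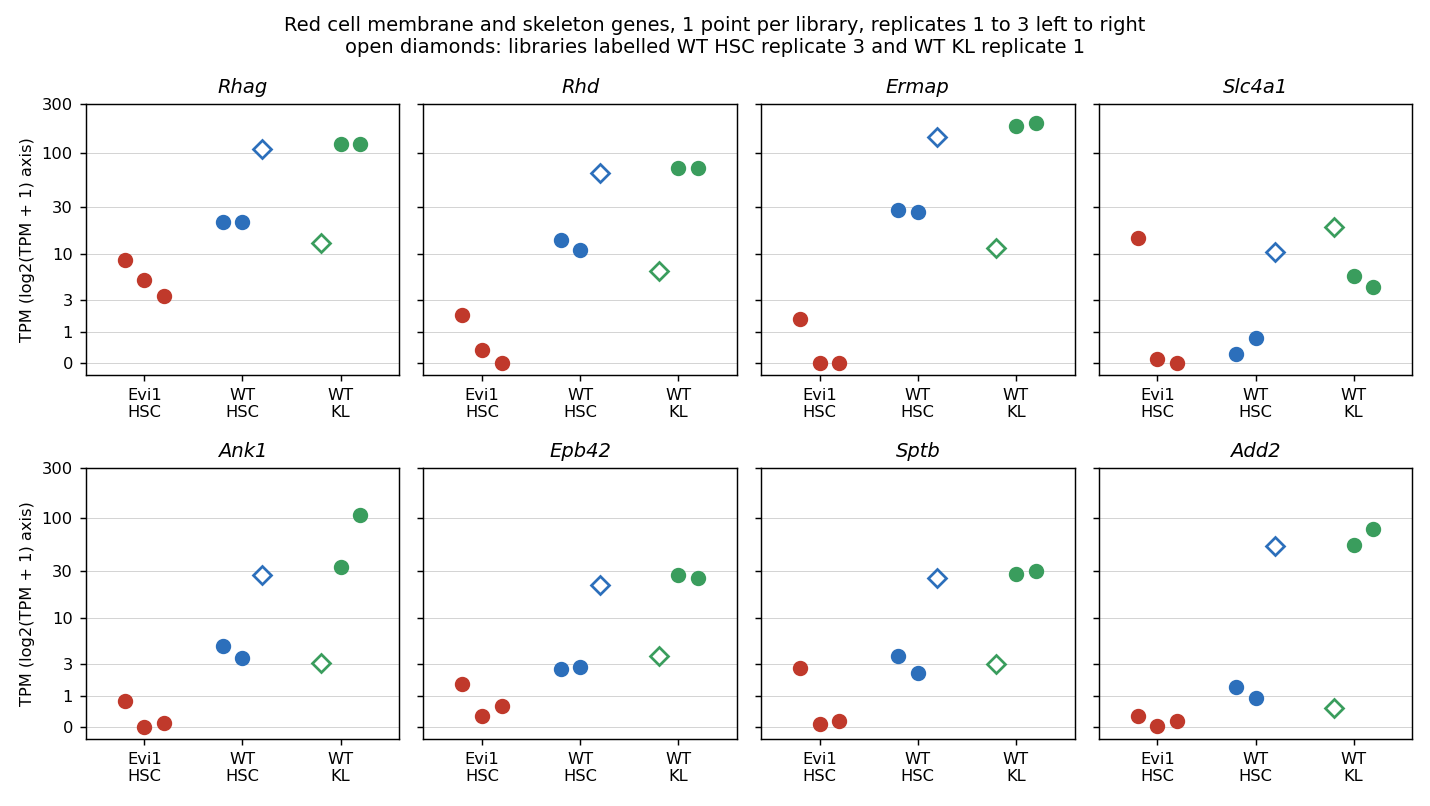
TPM of the 8 genes on a log2(TPM + 1) axis, 1 point per library, with replicates 1 to 3 from left to right in each group. Open diamonds are the libraries labelled WT HSC 3, which sits with the WT KL points in 7 panels, and WT KL 1, which sits near the WT HSC points in the same panels. In 6 panels all Evi1 HSC points lie under all WT points, and in the Slc4a1 panel Evi1 HSC 1 is at 14.8 TPM, above all WT points but 1.

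The Rh proteins and Ermap are carried in the membrane itself. Rhag encodes the Rh-associated glycoprotein, a channel-like protein that the Rh complex needs to reach the membrane (GRCm38 chromosome 17 from 40811126 to 40840754, plus strand). It was the most abundant of the 8 in Evi1 HSC 2 and 3, at 5.27 and 3.33 TPM, and stood at 8.75 TPM in replicate 1. The WT libraries labelled HSC held 21.4, 21.1 and 109 TPM, and those labelled KL held 13.02, 124 and 123 TPM. All 3 Evi1 HSC libraries were low, and the lowest WT value was that of WT KL 1.

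Rhd encodes the Rh blood group protein that pairs with the Rhag product (chromosome 4 from 134864536 to 134896172, plus strand). It was listed at 0 in Evi1 HSC 3, with 1.87 TPM in Evi1 HSC 1 and 0.323 TPM in Evi1 HSC 2. It was at 14.1, 10.99 and 64.3 TPM in the WT HSC libraries and at 6.53, 71.8 and 72.6 TPM in the WT KL libraries. The groups did not overlap with Evi1 HSC. The related ammonium transporter genes Rhbg and Rhcg, which serve epithelia, stayed at or under 0.211 TPM in all 9 libraries.

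Ermap encodes an erythroid immunoglobulin superfamily protein that carries the Scianna blood group (chromosome 4 from 119175457 to 119190011, minus strand). It was listed at 0 in Evi1 HSC 2 and 3 and stood at 1.61 TPM in replicate 1. The WT HSC libraries held 27.7, 26.7 and 143 TPM and the WT KL libraries 11.5, 181 and 195 TPM. It was the most abundant of the 8 genes in 5 of the 6 WT libraries. In Evi1 HSC it was below Rhag in every library.

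Ank1 encodes ankyrin-1, the adaptor between membrane proteins and spectrin (chromosome 8 from 22974844 to 23150497, plus strand). It was at 0.772, 0.0168 and 0.102 TPM in Evi1 HSC, at 5.0, 3.65 and 27.6 TPM in the WT HSC libraries and at 3.08, 33.3 and 106 TPM in the WT KL libraries. WT KL 3 stood apart for this gene. Of its 13527 exonic bases, 862 are shared with Gm15816 on the other strand, and Mir486 and Mir3107 lie inside it, so its values are less certain. The ankyrins of other tissues, Ank2 and Ank3, were under 1 TPM in every library, the highest value being 0.897 TPM.

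Epb42 encodes protein 4.2, which binds band 3 and ankyrin (chromosome 2 from 121017891 to 121037072, minus strand). It was at 1.58, 0.287 and 0.595 TPM in Evi1 HSC, under the 2.58, 2.77 and 22.0 TPM of the WT HSC libraries and the 3.81, 27.8 and 25.8 TPM of the WT KL libraries. The gap between the highest Evi1 HSC and the lowest WT value was small, at 1.58 against 2.58 TPM.

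Sptb encodes the erythroid beta spectrin (chromosome 12 from 76580488 to 76710547, minus strand). It was at 2.66 TPM in Evi1 HSC 1, within the WT HSC values of 3.85, 2.31 and 25.9 TPM, and at 0.0718 and 0.148 TPM in replicates 2 and 3. The WT KL libraries held 3.0, 28.4 and 30.1 TPM. Evi1 HSC 1 thus overlapped with WT HSC while the other 2 did not.

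Add2 encodes beta adducin (chromosome 6 from 86028681 to 86124409, plus strand, with 356 of 10139 exonic bases shared with Gm44089 on the other strand). It was at 0.283, 0.0252 and 0.150 TPM in Evi1 HSC, at 1.42, 0.926 and 53.6 TPM in the WT HSC libraries and at 0.541, 54.4 and 78.5 TPM in the WT KL libraries. Apart from the library labelled WT HSC 3 and WT KL 2 and 3, no library was above 1.42 TPM. Add2 passed the filter for testing (1 TPM in at least 3 libraries) with 4 libraries and Ank1 with 6, all of them WT. These genes thus entered testing only through the groups in which they were high. Slc4a1 passed with 5 libraries, Evi1 HSC 1 among them. Add1 and Add3, the adducin genes of most cells, were at 66.4 to 98.6 TPM and 3.70 to 23.3 TPM over the 9 libraries.

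Slc4a1 encodes band 3, the chloride and bicarbonate exchanger, whose messenger RNA accumulates late in red cell maturation (chromosome 11 from 102348824 to 102366203, minus strand). It was at 14.8 TPM in Evi1 HSC 1, at 0.0892 TPM in replicate 2 and listed at 0 in replicate 3. WT HSC 1 and 2 held 0.221 and 0.738 TPM, and WT KL 2 and 3 held 5.83 and 4.35 TPM. WT KL 1, as labelled, held the highest value, 19.1 TPM, and WT HSC 3, as labelled, held 10.6 TPM. It was the most abundant of the 8 genes in Evi1 HSC 1 and WT KL 1, where it made up 45.8 and 31.5% of their summed TPM.

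The alpha globin gene Hba-a1 was at 244 TPM in Evi1 HSC 1 against 2.40 and 2.03 TPM in replicates 2 and 3. It was at 1146 TPM in WT KL 1, as labelled, and at 22.2 to 273 TPM in the other 5 WT libraries. The beta globin genes Hbb-bt and Hbb-bs were also highest in Evi1 HSC 1 and WT KL 1, as labelled. They did not drop in Evi1 HSC 2 and 3 as Hba-a1 did. Hbb-bs was at 1188, 415 and 539 TPM in Evi1 HSC 1 to 3 and at 2294 TPM in WT KL 1, as labelled. The other 5 WT libraries held 134 to 468 TPM of it. Hbb-bt was at 1429, 681 and 861 TPM in Evi1 HSC 1 to 3 and at 2280 TPM in WT KL 1, as labelled, with the other 5 WT libraries lower at 165 to 619 TPM. Over 7 libraries Hbb-bt and Hbb-bs rose in Evi1 HSC against WT KL, by 2.42 and 2.08 (limma adjusted p = 7.4e-04 and 0.00714). Of all tested genes, 31.3% rose in that comparison. Hbb-bt also rose in WT HSC against WT KL, by 1.72 (limma adjusted p = 0.00599, beside 26.7% of tested genes), while Hbb-bs was not called. Between Evi1 HSC and WT HSC they differed by 0.70 and 0.69 (limma adjusted p = 0.582 and 0.727). Over 9 libraries neither was called in any of these comparisons. Hbb-y, the embryonic beta globin of yolk sac red cells, was at 1248 TPM in WT KL 1 and at or under 0.802 TPM in the other 8 libraries. The 7 hepatocyte genes looked up (Alb, Afp, Apoa1, Apoa2, Ttr, Serpina1a and Fgb) summed to 23.3 TPM there and to 7.89 TPM in Evi1 HSC 1, against 0.658 to 2.51 TPM elsewhere. Fgb was listed at 0 in 5 libraries. The part of these genes in the Slc4a1 values was not tested.

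**Figure D2:**
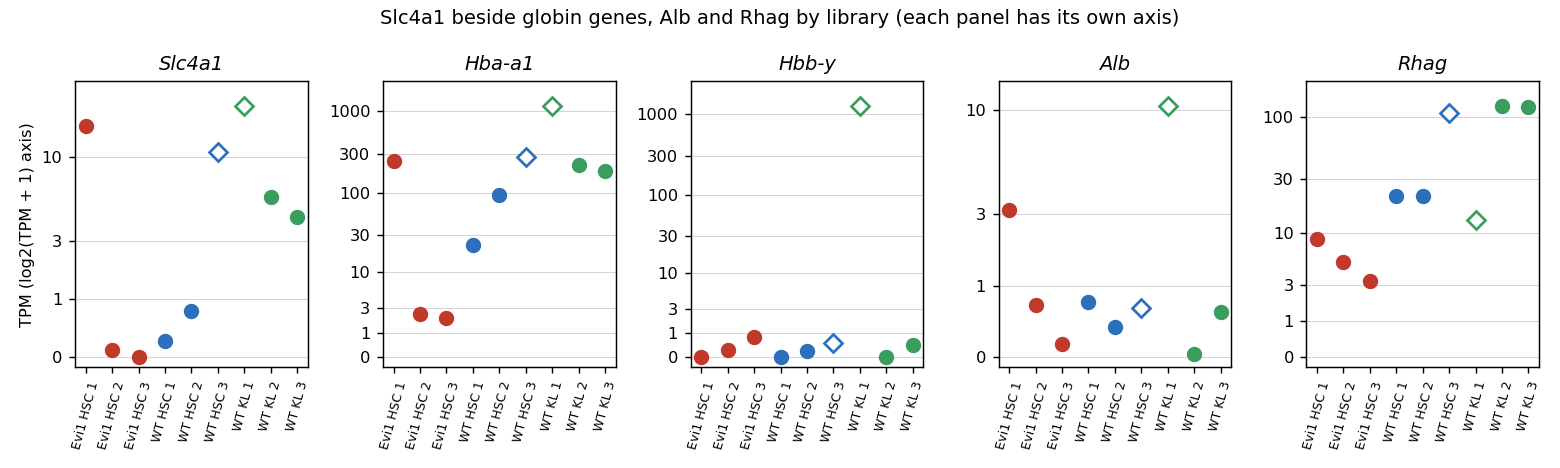
TPM of Slc4a1, Hba-a1, Hbb-y, Alb and Rhag in each of the 9 libraries, on log2(TPM + 1) axes that differ between panels, coloured by labelled group (red Evi1 HSC, blue WT HSC, green WT KL) with open diamonds for WT HSC 3 and WT KL 1. Evi1 HSC 1 and WT KL 1 hold the top Slc4a1 values, 14.8 and 19.1 TPM, and the top Alb values, 3.18 and 10.4 TPM, while Rhag is at 8.75 and 13.02 TPM there.

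Evi1 HSC were compared with WT HSC to ask what stem cells with ectopic Evi1 express beside stem cells of the same surface phenotype. Fold changes are differences of mean log2(TPM + 1), which understate the change of low genes, and limma's Benjamini-Hochberg adjusted p under 0.05 over all 19461 tested genes was the threshold. Over 9 libraries as labelled, limma called 0 of the 8 genes (beside 0.00514% of tested genes), with 4 at an unadjusted p under 0.05 (beside 4.66% of tested genes). All 8 differences were negative, with a median of -2.51 beside 0.11 over all tested genes. They ran from -0.17 for Slc4a1 to -5.14 for Ermap (interval from -7.65 to -2.62, adjusted p = 0.742).

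Over 7 libraries, limma called 1 of the 8, Ermap (beside 0.206% of tested genes in either direction, 0.149% lower and 0.0565% higher). Ermap fell by 4.35 on the log2 scale (SE 0.42, adjusted p = 0.0313). Ermap was at 0.538 ± 0.932 TPM in Evi1 HSC (SD, n = 3) against 27.7 and 26.7 TPM in WT HSC 1 and 2. Rhd differed by -3.11 (SE 0.42, adjusted p = 0.0601), Ank1 by -2.07 (SE 0.49, adjusted p = 0.271) and Rhag by -1.79 (SE 0.31, adjusted p = 0.126). Sptb, Epb42 and Add2 differed by -1.28, -1.08 and -0.91 (adjusted p of 0.329 to 0.590). Slc4a1 differed by 0.83, with an interval from -1.87 to 3.53 (adjusted p = 0.908), and by -0.48 without Evi1 HSC 1. The median over the 8 genes was -1.54, beside 0.00 over all tested genes, and 7 of the 8 had an unadjusted p under 0.05 (beside 8.40% of tested genes).

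The Ermap call was lost with 1 library fewer, except without Evi1 HSC 1. There 2 genes were called (beside 0.103% of tested genes, 0.0822% lower and 0.0206% higher): Ermap, and Rhd with adjusted p = 0.00877. Quantile normalization called the same pair (beside 0.206% of tested genes, 0.144% lower and 0.0617% higher). Neither a replicate block nor a fit without WT KL called any of the 8. Across all alternatives run over 7 libraries the difference of Ermap ran from -6.72 to -4.12 and its adjusted p from 0.00129 to 0.160.

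**Figure D3:**
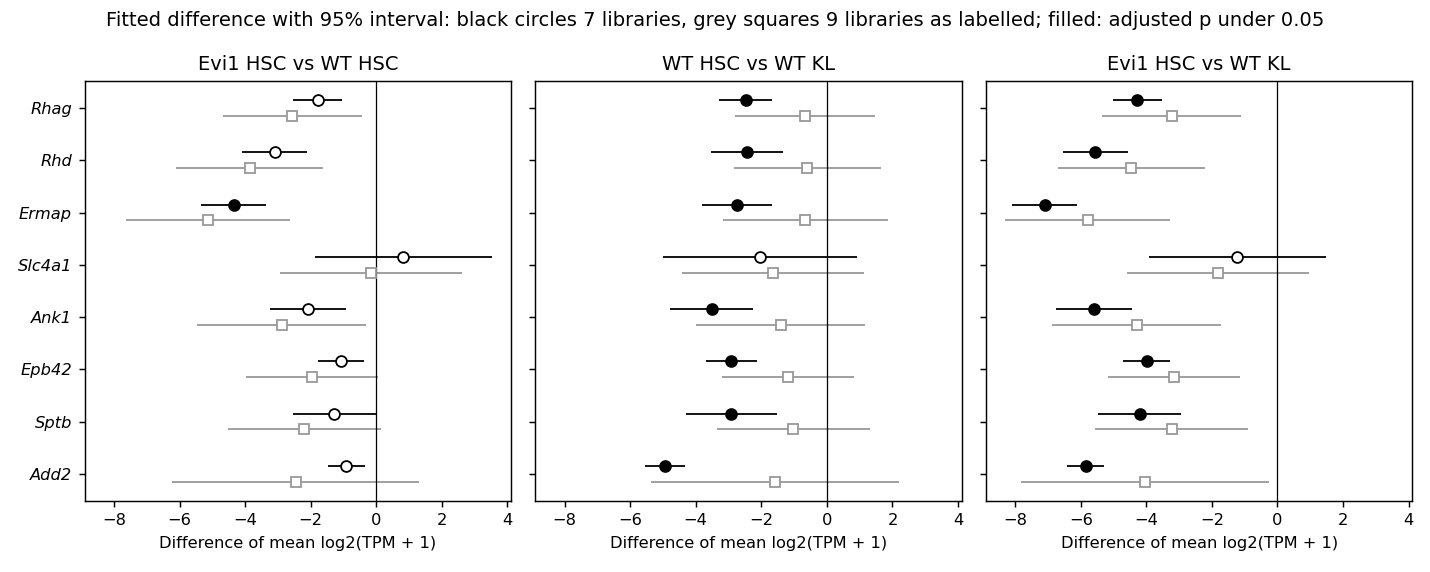
Fitted difference of mean log2(TPM + 1) for each gene in the 3 comparisons, with its 95% interval, over 7 libraries (black circles) and over 9 as labelled (grey squares), filled where the adjusted p was under 0.05. Over 7 libraries, Ermap is filled in the first panel and every gene but Slc4a1 in the other 2, and over 9 libraries none is filled.

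The regulators and receptor upstream of erythroid genes were read from the same fits. Of 9 such genes looked up, 3 fell in Evi1 HSC against WT HSC over 7 libraries (Gata1, Klf1 and Epor) and none rose. Of all tested genes, 0.149% fell and 0.0565% rose. The list median was -0.26, beside 0.00 over all tested genes. Over 9 libraries limma called 0 (beside 0.00514% of tested genes), with 4 at an unadjusted p under 0.05 (beside 4.66%). Klf1, the erythroid Krüppel-like factor, held 2.51, 0.474 and 0.110 TPM across Evi1 HSC, below the 13.6 to 155 TPM of the 6 WT libraries. Gata1, the erythroid GATA factor, was at 2.79 to 4.20 TPM against 8.92 to 118 TPM. Tal1, which stem cells also use, was at 24.3 to 46.3 TPM in Evi1 HSC and 29.3 to 39.9 TPM in the WT libraries. Of the 9, 4 lay below all WT libraries in Evi1 HSC (Gata1, Klf1, Gfi1b and Epor), beside 4.28% of tested genes. Another 4 overlapped, Tal1 among them, and 1 lay above, beside 5.11% of tested genes. That gene was Nfe2, an erythroid and megakaryocyte transcription factor, at 88.3 to 103 TPM against 30.5 to 77.8 TPM, with no call against WT HSC over 7 libraries (limma adjusted p = 0.541).

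WT HSC were set beside WT KL to ask how the stem cell gate differs from committed progenitors of the same genotype. Over 9 libraries as labelled, 0 of the 8 genes were called (beside 0.00514% of tested genes). At an unadjusted p under 0.05 stood 0 of the 8 (beside 1.45% of tested genes). The labelled WT HSC 3 was high and the labelled WT KL 1 low in 7 of the 8. Over 7 libraries, 7 of the 8 fell in WT HSC, beside 37.5% of tested genes called in either direction, 10.8% lower and 26.7% higher. Add2 fell by 4.94 (SE 0.26, adjusted p = 7.4e-05) and Ank1 fell by 3.52 (SE 0.54, adjusted p = 0.00309). Epb42 fell by 2.92 (SE 0.33) and Sptb fell by 2.92 (SE 0.58), with adjusted p of 9.6e-04 and 0.00870. Ermap, Rhag and Rhd also fell, with differences of -2.74, -2.48 and -2.45 (adjusted p of 0.00208 to 0.00692). The median over the 8 was -2.83 beside 0.26 over all tested genes.

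Slc4a1 was not called, at -2.05 with an interval from -5.01 to 0.91 (adjusted p = 0.236). In the fit without Evi1 HSC 1, and in that on the compared groups alone, it was called as well, so that all 8 fell. Those fits called 7023 and 7009 of the 19461 tested genes, 1988 and 1954 of them lower. Sptb was not called without WT HSC 2 or without WT KL 3, which left 6. A pseudocount of 0.1 in place of 1 called 4 of the 8 (Epb42, Rhag, Add2 and Ank1), against 7 with the pseudocount of 1. Over all 19461 tested genes it called 7558, 2021 of them lower, against 7307 and 2104 with the pseudocount of 1.

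Evi1 HSC against WT KL differ in both genotype and gate, and share libraries with both comparisons above. Over 9 libraries as labelled, 0 of the 8 were called (beside 0.0103% of tested genes), with 7 at an unadjusted p under 0.05 (beside 15.2% of tested genes). Without WT KL 1 alone, Ermap, Rhd and Ank1 were called (beside 0.493% of tested genes, 0.313% lower and 0.18% higher). Over 7 libraries, 7 of the 8 fell in Evi1 HSC, beside 45.5% of tested genes in either direction, 14.3% lower and 31.3% higher. Ermap fell by 7.10 (SE 0.42, adjusted p = 5.5e-05), Add2 fell by 5.85 (SE 0.23, adjusted p = 1.9e-05), Ank1 fell by 5.59 (SE 0.49, adjusted p = 2.2e-04) and Rhd fell by 5.55 (SE 0.42, adjusted p = 1.3e-04). Rhag, Sptb and Epb42 also fell, with differences of -4.27, -4.20 and -3.99. Slc4a1 differed by -1.23 (adjusted p = 0.412) and was called, at -2.53 (adjusted p = 0.00148), only without Evi1 HSC 1.

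The order of the 8 levels differed between groups. In WT KL 2 and 3, Ermap (181 and 195 TPM) stood above Rhag (124 and 123 TPM), which stood above Rhd (71.8 and 72.6 TPM). Add2, at 54.4 and 78.5 TPM, and Ank1, at 33.3 and 106 TPM, overlapped with each other and with Rhd. Sptb (28.4 and 30.1 TPM) stood just above Epb42 (27.8 and 25.8 TPM), and Slc4a1 was lowest. In WT HSC 1 and 2 Ermap, Rhag and Rhd led. Add2 was there the second lowest, at 1.42 and 0.926 TPM, where Sptb, Epb42 and Ank1 stood at 2.31 to 5.0 TPM.

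Sptb was set beside the spectrin genes of other cells. Sptan1 and Sptbn1, which most other cells use, went the other way between gates. Sptan1 was at 36.4 to 37.5 TPM in Evi1 HSC, and WT HSC 1 and 2 stood at 35.5 and 32.0 TPM, against 4.95 and 3.41 TPM in WT KL 2 and 3. Over 7 libraries it rose by 2.76 in WT HSC against WT KL (SE 0.18, adjusted p = 1.4e-04), and Sptbn1 rose by 2.21 (SE 0.24, adjusted p = 8.3e-04). Between Evi1 HSC and WT HSC the differences of Sptan1 and Sptbn1 were 0.13 and 0.03 (adjusted p = 0.896 and 0.987). Neither was called in any of these comparisons over 9 libraries as labelled.

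**Figure D4:**
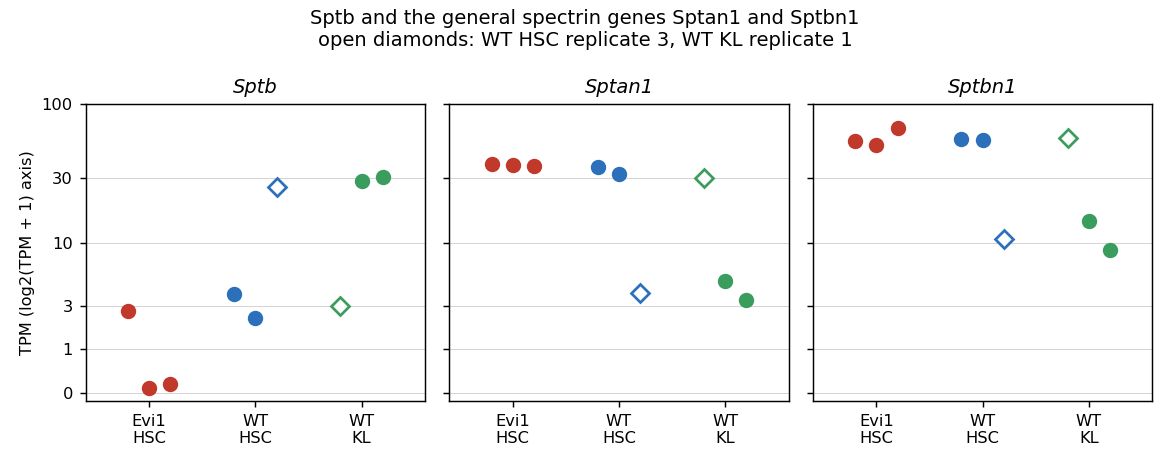
TPM of the erythroid gene Sptb and of the general spectrin genes Sptan1 and Sptbn1 on a log2(TPM + 1) axis, 1 point per library and open diamonds for the labelled WT HSC 3 and WT KL 1. Sptb ranges from 25.9 to 30.1 TPM in WT KL 2 and 3 and the labelled WT HSC 3, and those libraries hold the lowest Sptan1 and Sptbn1 values.

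Other genes of the red cell membrane were read from 2 lists. Of 9 skeleton partners (Epb41, Dmtn, Tmod1, Add1, Add3, Mpp1, Tpm1, Tpm3 and Actb), limma called 0 in Evi1 HSC against WT HSC. That held over 9 and over 7 libraries, beside 0.00514% and 0.206% of tested genes called. At an unadjusted p under 0.05 there were 0 over 9 libraries and 2 over 7, beside 4.66% and 8.40% of tested genes. In WT HSC against WT KL over 7 libraries 1 fell (Dmtn) and 2 rose (Tpm3 and Actb), beside 10.8% and 26.7% of tested genes, with a list median of -0.19. Epb41, the gene of protein 4.1, which joins spectrin, actin and glycophorin C, was at 35.2 to 67.4 TPM over the 9 libraries.

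The second list held 16 further membrane proteins. In Evi1 HSC against WT HSC 0 of 16 were called over 9 or 7 libraries, beside 0.00514% and 0.206% of tested genes. At an unadjusted p under 0.05 stood 6 and 7 of the 16, beside 4.66% and 8.40% of tested genes. Over 7 libraries 10 fell and 1 rose in WT HSC against WT KL, and 10 fell and 2 rose in Evi1 HSC against WT KL. Of all tested genes, 10.8% fell and 26.7% rose in the first of these and 14.3% fell and 31.3% rose in the second. Kel, the Kell blood group protease, held 3.52, 0.0525 and 0.585 TPM in Evi1 HSC, 10.05, 9.86 and 61.8 TPM in the WT HSC libraries and 7.77, 58.6 and 74.2 TPM in the WT KL libraries. Bcam, the Lutheran antigen and laminin receptor, was the gene that rose in both, at 15.8 to 23.5 TPM in Evi1 HSC, 7.20 TPM in WT HSC 1 and 11.4 TPM in WT HSC 2, beside 0.0834 and 0.104 TPM in WT KL 2 and 3.

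Of the 16 membrane proteins, 6 lay below all WT libraries in Evi1 HSC (Kel, Icam4, Aqp1, Slc29a1, Stom and Piezo1). Slc2a1 and Bcam, 2 of the 16, lay above. Of all tested genes, 4.28% lay below and 5.11% above. Of the 9 skeleton partners, 0 lay below and 1, Tpm3, above. Aqp1, the water channel, ranged from 5.48 to 6.31 TPM in Evi1 HSC and from 7.78 to 71.7 TPM over the WT libraries. Slc29a1, a nucleoside transporter, was at 15.6 to 17.7 TPM against 25.3 to 78.8 TPM.

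**Figure D5:**
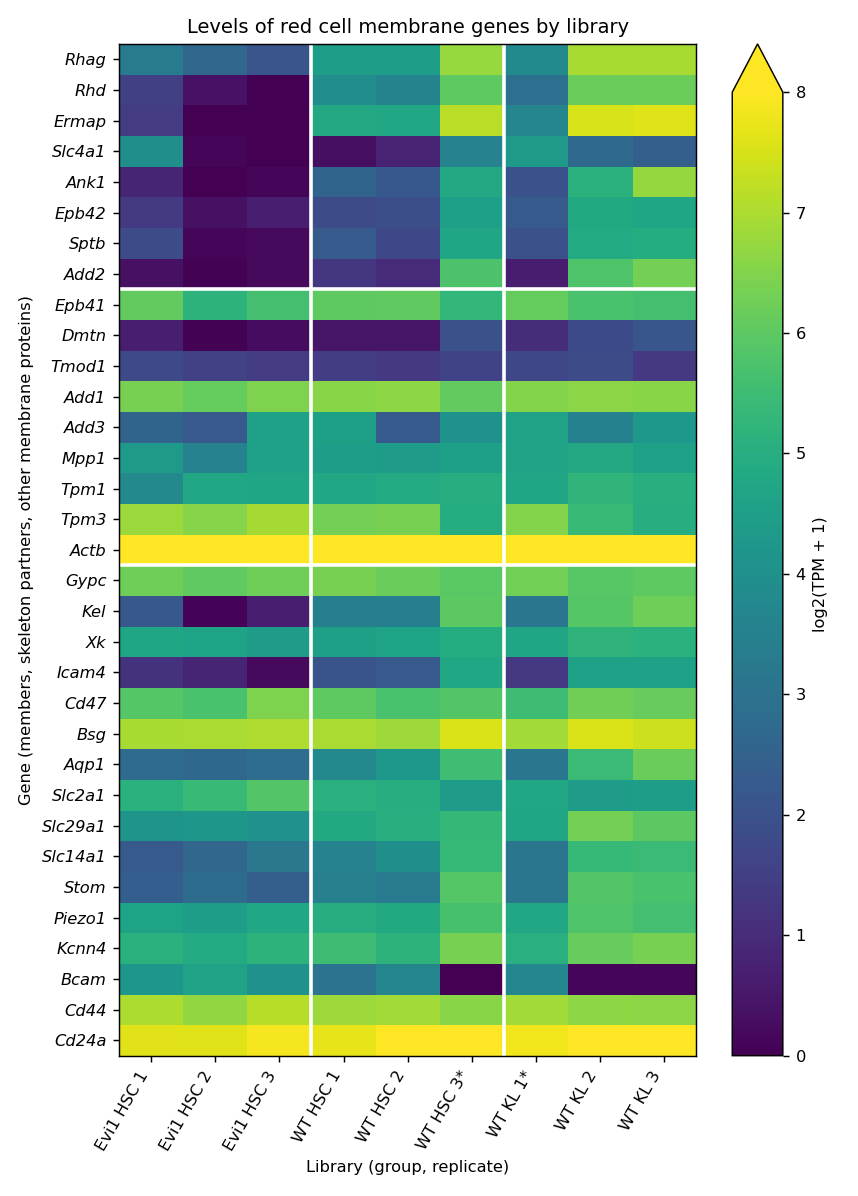
Colour gives log2(TPM + 1), from 0 (dark) to 8 or more (yellow), for the 8 genes, 9 skeleton partners and 16 other membrane proteins (rows, split by white lines) in the 9 libraries (columns), with stars on WT HSC 3 and WT KL 1. The 8 genes, Kel and Icam4 are darkest in Evi1 HSC 2 and 3, while Epb41, Add1 and Gypc keep a like colour across columns.

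The genes most like each of the 8 were found by the root-mean-square difference of centred log2(TPM + 1) values over the 9 libraries, among 9081 genes. Nearest to Ermap were Pklr at 0.17, Klf1 at 0.33 and Atp1b2 at 0.74. Pklr, which encodes a pyruvate kinase of red cells and liver, was at 1.95 TPM in Evi1 HSC 1, listed at 0 in replicate 2 and at 0.00404 TPM in replicate 3, and at 15.5 to 209 TPM in the WT libraries. Nearest to Rhag were Cpox (0.15), Samd14 (0.20) and Icam4 (0.23), and nearest to Rhd were Nxpe2 (0.32), Kel (0.38) and Klf1 (0.39). Among the 3 nearest to Epb42 were Ifi30 (0.24) and Slc16a10 (0.26), and among those of Sptb were Samd14 (0.33) and Alad (0.36).

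The remaining 3 had no gene as near. Ank1 was closest to Tspo2 (0.55), Cldn13 (0.55) and Gata1 (0.56). Add2 was closest to Ms4a3 (0.55), Tlcd4 (0.66) and Mpo (0.68), and the granulocyte gene Mpo was at 5.22 to 14.2 TPM in all libraries except the labelled WT HSC 3 and WT KL 2 and 3, where it was at 279 to 812 TPM. Slc4a1 was closest to Snrpc at 1.05, and its difference from the other 7 of the 8 ran from 1.63 (Epb42) to 2.74 (Ermap). Among those 7, Sptb and Epb42 were nearest to each other, at 0.32.

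Markers of other cells were looked up in every library. The 8 macrophage genes summed to 9.01 to 14.5 TPM, with C1qa at 0 in 5 libraries, the 6 stroma genes to at most 1.86 TPM and the 7 lymphoid genes to at most 9.91 TPM, with Cd3e at 0 in all 9. The 11 granulocyte and monocyte genes summed to 632 to 2085 TPM in the labelled WT HSC 3 and WT KL 2 and 3, the libraries in which 7 of the 8 genes were highest, and to 29.2 to 45.7 TPM in the other 6. The 6 mast cell and basophil genes likewise summed to 13.1 to 57.1 TPM in those 3 libraries and to at most 4.12 TPM in the other 6, with Gzmb at 0 in all 9. The 7 endothelial genes, some of which hematopoietic stem cells also express, went the other way, at 3.54 to 5.30 TPM in those 3 and 91.1 to 174 TPM in the other 6. Among them Stab2 and Lyve1 lay above all WT libraries in Evi1 HSC, beside 5.11% of tested genes. Stab2 was at 10.01 to 10.8 TPM against at most 8.26 TPM. WT HSC 1 and 2 were split, at 0.175 and 8.26 TPM for Stab2 and 0.393 and 8.58 TPM for Lyve1. Neither gene was called against WT HSC over 7 libraries (limma adjusted p = 0.591 and 0.597). The 9 megakaryocyte genes summed to at most 15.8 TPM in those 3 libraries and to 151 to 215 TPM in the other 6. The part of other cell types in the levels of the 8 genes was not tested.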

How the data were processed

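RNA from 9 libraries of 100 sorted cells was measured. The authors deposited TPM per gene, per the file headers, 1 library per file and none pooled. In the file of WT HSC replicate 2 the value column has another heading, and it was used as TPM because its sum and range match the others. The submitters' processing notes name HISAT2, StringTie and mm10. For versions, annotation and use of strand, nothing is given in the sources used here. The genes in the tables held 56.9 to 63.8% of each library's TPM scale. TPM keeps no read depth, so no counting intervals are given and no count model was used.

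Values were analysed as log2(TPM + 1), with a pseudocount of 1, in limma 3.58.1 (R 4.3.3): 1 linear model with a mean per group, moderated with a trend, Benjamini-Hochberg adjustment over the 19461 genes that reached 1 TPM in 3 or more libraries, and calls at adjusted p under 0.05. All 8 genes passed this filter, Ank1 and Add2 through WT libraries alone. The fit was tested on simulated data. The members, gene lists and the choice of 7 libraries were made with earlier results of these data known. Named genes were the 8, genes of the fixed lists, genes that check the labels, and per member the 3 genes of most like pattern with a mean of at least 5 TPM. Relatives, globins and markers of other cells were named from fixed lists after their values were seen. Some genes of the lists and of the like patterns are not reported here and are left out of the list counts. Gene positions are from GENCODE M21 (GRCm38) and promoters from RefSeq (GRCm38.p6). Alternatives were 2 other pseudocounts, no filter, rescaling, quantile normalization, the compared groups alone, a replicate block and leaving out each library.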

Additional observations from a re-analysis of the deposited data

How the results depend on the processing

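Over 9 libraries as labelled, 0 of the 8 genes were called in each comparison and in each alternative, except without WT KL replicate 1, where 3 were called in Evi1 HSC against WT KL (range 0 to 3 with 1 library left out), and except over 7 libraries. There the counts were 1 in Evi1 HSC against WT HSC, 7 in WT HSC against WT KL and 7 in Evi1 HSC against WT KL. Over 7 libraries, the single call in Evi1 HSC against WT HSC became 0 with a pseudocount of 0.1, with no filter, without the third group and with the replicate block, and 2 with quantile normalization. With 1 library left out it ran from 0 to 2. Where that leaves 1 library in a WT group, it is assumed to vary like the other groups. In WT HSC against WT KL the 7 calls became 4 with a pseudocount of 0.1, and all other alternatives gave 6 to 8. Evi1 HSC against WT KL gave 7 or 8 in every alternative. Deviations of same-numbered libraries from their group means correlated from -0.636 to 0.704. Both extremes were between WT HSC and WT KL. Their means include the pair of libraries that goes against its labels, so this cannot show whether the replicate numbers pair libraries. The block changed no other count of calls among the 8.

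Signs of the log2 differences reversed for 2 genes, neither called where its sign differed. For Slc4a1 in Evi1 HSC against WT HSC over 9 libraries, -0.17 became 0.45 without Evi1 HSC replicate 2, 0.51 without replicate 3, 0.83 without WT HSC replicate 3 and 0.83 over 7 libraries (-1.48 to 0.83 with 1 library left out). Over 7 libraries its 0.83 ran from -0.48, without Evi1 HSC replicate 1, to 1.51. Ermap in WT HSC against WT KL over 9 libraries was -0.66. It ran from -1.96 to 0.023 with 1 library left out, the latter without WT KL replicate 3, and was -2.74 over 7 libraries. The cause was not tested. Of the other comparisons of a gene with its alternative, 700 stayed on the same side, 23 gained a call and 15 lost one.

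Over all tested genes, 40 were called in Evi1 HSC against WT HSC over 7 libraries, but 0 with the replicate block, 6 without the WT KL libraries, 5 to 27 with 1 library left out and 73 with no filter. The median difference of all genes in WT HSC against WT KL over 7 libraries moved from 0.26 to -0.10 with quantile normalization, which left the calls of the 8 genes at 7 and turned the split over all genes from 5203 higher and 2104 lower to 2999 and 3155. In Evi1 HSC against WT KL that split went from 6087 and 2776 to 3663 and 4014. The count of genes below all WT libraries was 6 and ran from 6 to 8 without 1 Evi1 HSC library, an alternative chosen after seeing the data. Precision is limited by 2 or 3 libraries per group and an unknown read depth.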

Other observations

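The anion exchangers and protein 4.1 relatives that other tissues use were also looked up. Slc4a2, the widely expressed relative of band 3, ranged from 15.5 to 19.6 TPM over the Evi1 HSC libraries. WT HSC replicates 1 and 2 stood at 19.1 and 16.9 TPM, while WT KL replicates 2 and 3 stood at 7.22 and 7.50 TPM. It stood above Slc4a1 in every library except WT HSC replicate 3 and WT KL replicate 1, as labelled. Of 14 relatives of the 8 genes looked up, 8 passed the filter on low values, and over 7 libraries 5 of those rose in WT HSC against WT KL, none fell and 3 were not called, where 26.7% of all tested genes rose and 10.8% fell. In Evi1 HSC against WT HSC none of these 8 relatives was called by limma over 7 libraries, beside 0.206% of tested genes. Of these 8 relatives, 0 had an unadjusted p under 0.05, beside 8.40% of tested genes.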
